A study of Mus musculus with 9 samples.

Results

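The genes described here encode the proteins of the cytosolic ribosome. They were taken by their symbols, which begin with Rpl, Rps or Rplp or read Rpsa, and 85 symbols of the table matched. Of these, 3 (Rps4l, Rpl6l and Rpl32l) are annotated as pseudogenes and were left out. The remaining 82 genes, of 29756 entries in all, comprise 51 genes of the large subunit and 31 of the small subunit.

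RNA came from cultures of HT22, an immortalised line derived from mouse hippocampal neurons. The labels name 3 groups with 3 libraries in each, an intervention group, an experimental group and a control group. The title of the series refers to hemin, the oxidised form of heme, and to a micelle called PPP8, but the labels do not tie either agent, a dose or a time to a group. No genotype or transgene is given, and the groups are therefore called by their labels alone. Separate cultures are not stated either, so each p-value measures the spread between these libraries, which may be technical.

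A ribosome holds a small subunit, which reads the mRNA, and a large subunit, which joins the amino acids, and most proteins of a subunit are needed in equal number. The mRNAs of these proteins are abundant in growing cells and start with a C followed by a run of pyrimidines, the terminal oligopyrimidine (TOP) tract, through which the kinase mTOR and the RNA-binding protein Larp1 control their translation and stability. Several of the genes have a paralog, a second gene for nearly the same protein, and most have many processed pseudogenes, which are intronless copies of the mRNA pasted elsewhere in the genome.

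The values are FPKM, which divide the fragments of a gene by its length and by the size of the library, and their depth in reads is unknown. Intervention libraries summed to 336987 to 339943 FPKM, experimental libraries to 332864 to 338823 and control libraries to 316912 to 327127. Of 12 neuronal markers, 9 (Map2 and Rbfox3 among them) were below 1 FPKM in all 9 libraries, so the neuronal label rests on few of its defining markers, led by Tubb3 and Eno2. The 8 markers of microglia and blood summed to 3.64 to 5.17 FPKM in intervention, 2.65 to 4.16 in experimental and 12.1 to 13.2 in control libraries, and the 6 astrocyte markers to 2.3 to 4.26, 3.17 to 3.39 and 6.18 to 7.68 in the same groups. The 4 oligodendrocyte and 3 endothelial markers were each below 1 FPKM in all libraries. The nuclear RNA Malat1, often read as a sign of RNA quality, averaged 78.9 ± 8.16 FPKM in intervention, 91.8 ± 12.9 in experimental and 143 ± 40.6 in control libraries (SD, n = 3 each). Neat1, another nuclear RNA, averaged 6.06 ± 0.64 FPKM in intervention, 5.74 ± 0.894 in experimental and 16.4 ± 3.21 in control libraries. The 3 fibroblast markers, mostly Col1a1, summed to 48.1 to 50.4 FPKM in intervention, 51.5 to 52.6 in experimental and 139 to 200 in control libraries. Of the 8 markers of microglia and blood, 5 were below 1 FPKM in all libraries. Only 2 were tested, and 1 was called higher and 1 lower in each control comparison (limma, adjusted p under 0.05). Of the 6 astrocyte markers, 4 were below 1 FPKM in all libraries and only 1 was tested. The 12 neuronal markers summed to 9.33 to 11.1 FPKM in intervention, 12.27 to 12.32 in experimental and 12.55 to 17.3 in control libraries. Malat1, Neat1 and the summed markers of neurons, fibroblasts, astrocytes, microglia and blood were thus highest in control libraries. The ribosomal protein genes below were lowest there. The part of these RNAs and markers in those results was not tested.

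Ribosomal protein mRNA took a larger share of the library in the intervention and experimental groups than in the control group. The 82 genes held 8.51%, 7.98% and 8.53% of the summed FPKM in the intervention libraries, 8.12%, 8.35% and 8.11% in the experimental libraries, and 6.80%, 6.98% and 6.24% in the control libraries. Each of the 6 intervention and experimental libraries was above each control library, while the intervention and experimental libraries overlapped. Mean shares were 8.34 ± 0.314%, 8.19 ± 0.136% and 6.67 ± 0.386% for the intervention, experimental and control groups (SD, n = 3 each).

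The proportion of the 2 subunits overlapped between the groups. Large-subunit genes together had 1.78 to 1.80 times the summed FPKM of small-subunit genes in intervention, 1.79 to 1.82 times in experimental and 1.80 to 1.82 times in control libraries. In RNA from whole cultures, fewer cells with a transcript and less of it per cell cannot be told apart, and FPKM gives shares of a library, not amounts per cell.

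**Figure D1:**
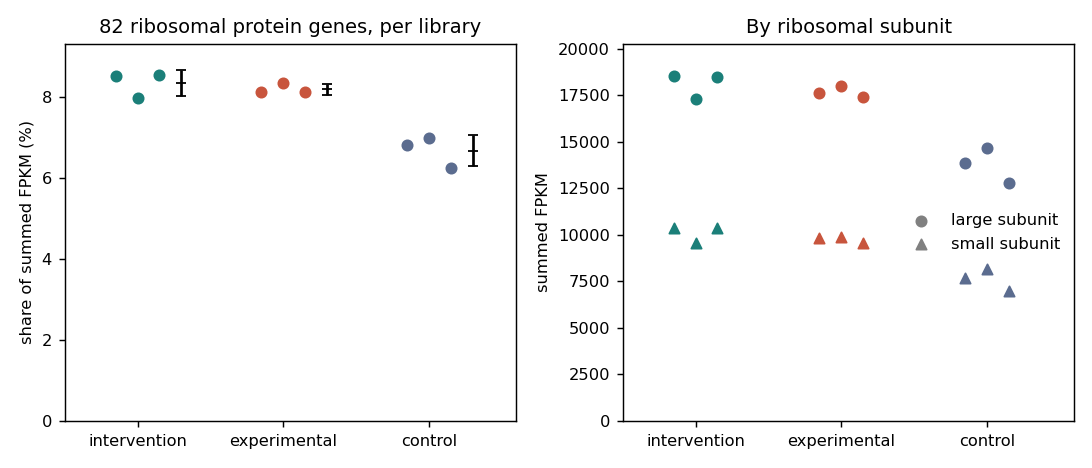
Left, the share of summed FPKM (%) held by the 82 ribosomal protein genes in each library, with the group mean and SD to the right of the points. Right, the summed FPKM of the large-subunit genes (circles) and small-subunit genes (triangles). The 6 intervention and experimental libraries lie between 7.98% and 8.53%, above the 3 control libraries at 6.24% to 6.98%.

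Levels ranged widely between members. Over all 9 libraries the mean FPKM of the 81 genes with detectable mRNA ran between 4.24 for Rpl29 and 2528 for Rplp0, with a median of 190 and a ratio of 6.10 between the upper and lower quartiles. All 81 reached 1 FPKM in all 9 libraries, so the filter on low values removed none of them. The other member, Rpl10l, a relative of Rpl10 that is expressed in mouse testis, had 0.06 FPKM in intervention replicate 3 and 0.03 FPKM in experimental replicate 1. It was listed at 0 in the other libraries and was not tested.

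The experimental group was compared with the control group first. Of the 81 tested genes, 67 were higher in experimental cultures, 1 (Rps27l) was lower and 13 were not called at an adjusted p under 0.05 (limma across all entries, Benjamini-Hochberg adjustment). Among all 11974 tested entries, 74.0% were called, 23.5% as higher and 50.5% as lower. The median difference of the ribosomal protein genes was 0.38 on the log2(FPKM + 1) scale, against -0.21 over all tested entries. By subunit, 26 of 31 small-subunit genes were higher and 1 lower, and 41 of 50 large-subunit genes were higher.

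The stalk of the large subunit recruits the elongation factors, and its 3 genes rose together. Rplp0, the base of the stalk and the most abundant member, had 2723, 2791 and 2673 FPKM in experimental libraries, against 2193, 2227 and 2100 in control libraries. Its difference was 0.33 ± 0.0491 (SE, log2 scale, adjusted p = 0.000148, limma). With no filter on low values its adjusted p was 0.0506. Rplp1 had 934, 956 and 959 FPKM in experimental libraries, against 734, 743 and 672 in control libraries (0.41 ± 0.0679, adjusted p = 0.000315, limma). Rplp2 had 124, 130 and 127 FPKM in experimental libraries, against 93.0, 93.2 and 86.0 in control libraries (0.48 ± 0.0673, adjusted p = 9.17e-05, limma). All 3 stalk genes were higher in each experimental library than in any control library.

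Rps6, the small-subunit protein that S6 kinases phosphorylate downstream of mTOR, had 1792, 1810 and 1708 FPKM in experimental libraries, against 1343, 1489 and 1236 in control libraries. It rose by 0.39 ± 0.0674 (SE, log2 scale, adjusted p = 0.000425, limma) with no overlap between the groups. Rpl8, which lies close to the catalytic centre of the large subunit, averaged 1541 ± 23.1 FPKM in experimental and 1161 ± 20.1 in control libraries (SD, n = 3 each), a rise of 0.41. With quantile normalization Rpl8 was not called (0.09, adjusted p = 0.211). Rps4x, the small-subunit gene on the X chromosome, averaged 1078 ± 13.6 FPKM in experimental and 877.7 ± 33.4 in control libraries, and Rps15, of the head of the small subunit, averaged 1000.2 ± 6.32 and 831 ± 65.9 FPKM in the same order of groups. Both rose, by 0.30 (adjusted p = 0.000212) and 0.27 (adjusted p = 0.0184, limma), and neither overlapped. Without control replicate 3 the adjusted p of Rps15 was 0.0664 at a difference of 0.20.

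Rpl5 and Rpl11 bind the smallest ribosomal RNA as a particle that can also hold back Mdm2, the ubiquitin ligase of p53. Rpl5 had 388, 385 and 366 FPKM in experimental libraries, against 269, 307 and 262 in control libraries (0.45 ± 0.0621, adjusted p = 9.2e-05, limma). Rpl11 had 138, 144 and 135 FPKM in experimental libraries, against 116, 125 and 99.8 in control libraries (0.29 ± 0.0771, adjusted p = 0.00601, limma). Neither gene overlapped between the groups.

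Among called members, several of those with the largest rise were of low FPKM. Rpl22l1, the paralog of Rpl22, averaged 7.34 ± 0.396 FPKM in experimental and 4.14 ± 1.24 in control libraries (SD, n = 3 each), a difference of 0.72 ± 0.14 (SE, log2 scale). Rpl29 had 5.07, 4.65 and 5.31 FPKM in experimental libraries, against 2.81, 2.57 and 2.72 in control libraries (0.70 ± 0.0881), and Rpl30 averaged 21.2 ± 4.07 and 12.7 ± 2.67 FPKM in the same groups (0.70 ± 0.176). Rpl9, Rps15a and Rpl34 followed with differences of 0.56, 0.52 and 0.50. Adjusted p-values of these 6 genes lay between 4.49e-05 (Rpl29) and 0.00439 (Rpl30, limma), and none of them overlapped between the groups. Rpl34 and Rpl30 hold 1.22% and 16.1% of the sum of gene and named copies, and those sums rose by only 0.30 (adjusted p = 0.0341) and 0.36 (adjusted p = 0.0358, limma). Over all members, 65 were higher without overlap and none lower without overlap, where 24.7% of all tested entries were higher without overlap.

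The 13 members that were not called fall into those with a larger difference and a wide spread and those with a difference close to 0. Rpl17, Rps27, Rps12, Rpl35a, Rpl39, Rpl39l, Rpl41, Rpl7a and Rps28 differed by 0.25 to 0.88 between experimental and control libraries, with lower ends of the 95% interval between -0.32 and 0.03. Rpl3, Rps2, Rpl7l1 and Rpl36al differed by only 0.08, 0.07, -0.03 and -0.04. Leaving out single libraries gave 60 to 72 called members. Quantile normalization gave 53 higher and 6 lower members, the 6 being the abundant genes Rpl4, Rpl19, Rps4x, Rps6, Rps15 and Rpsa. Median-ratio scaling gave 76 higher and 0 lower members, and over all entries it split the calls into 4380 higher and 4357 lower, against 2809 higher and 6047 lower as deposited. With quantile normalization that split was 4172 and 4432.

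**Figure D2:**
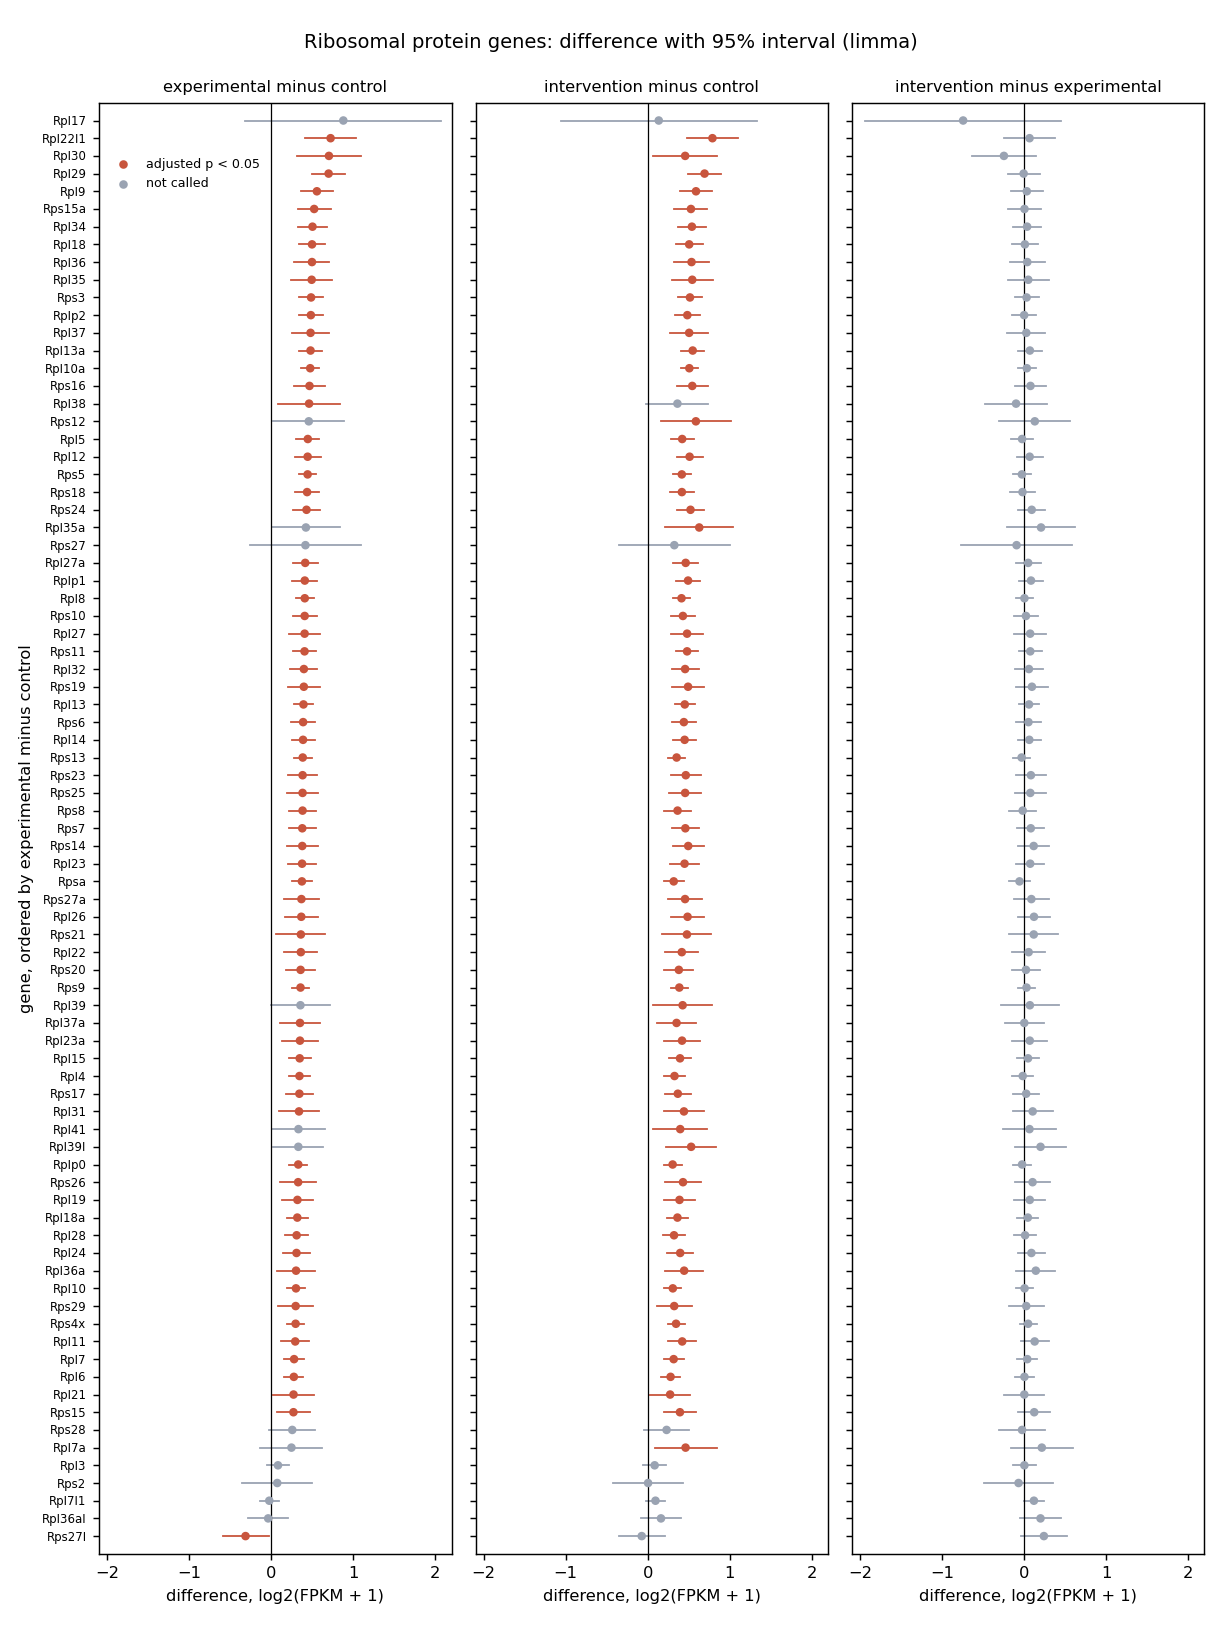
Difference of each of the 81 tested ribosomal protein genes on the log2(FPKM + 1) scale with its 95% interval, for experimental minus control (left), intervention minus control (middle) and intervention minus experimental (right). Genes run from the highest to the lowest experimental minus control difference, and red marks an adjusted p under 0.05 (limma). The left and middle panels lie mostly above 0, with 67 and 72 members higher, and the right panel has no called member.

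The intervention group was also compared with the control group. Of the 81 genes, 72 were higher in intervention cultures, 0 were lower and 9 were not called (limma, adjusted p under 0.05), and 72 had an unadjusted p under 0.05. Among all tested entries 65.3% were called, 24.1% as higher and 41.1% as lower. Without adjustment, 8186 of the 11974 tested entries had a p under 0.05 (limma). The median difference was 0.43 for the ribosomal protein genes, against -0.10 over all tested entries. Of 31 small-subunit genes 27 were higher, and of 50 large-subunit genes 45. Without overlap, 67 members were higher, where 25.8% of all tested entries were. Median-ratio scaling gave 77 higher and 0 lower members, and quantile normalization 56 higher and 2 lower (Rpl4 and Rpsa). Over all entries the split was 3912 higher and 3876 lower with median-ratio scaling and 3798 and 3913 with quantile normalization, against 2890 and 4926 as deposited.

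The stalk gene Rplp0 had 2638, 2702 and 2708 FPKM in intervention libraries, against the control values above, a difference of 0.30 ± 0.0491 (SE, log2 scale, adjusted p = 0.000355, limma), with an adjusted p of 0.0809 when no filter on low values was used. Rps6 had 1845, 1816 and 1847 FPKM in intervention libraries and differed from control by 0.44 ± 0.0674 (adjusted p = 0.000246, limma), a call lost with quantile normalization (0.10, adjusted p = 0.0502). Rpl5 had 369, 381 and 369 FPKM in intervention libraries (0.42 ± 0.0621 against control) and Rpl11 had 160, 145 and 151 (0.42 ± 0.0771). Each of these intervention values exceeded each control value.

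The largest rises against control were those of Rpl22l1 (0.79 ± 0.14), Rpl29 (0.69 ± 0.0881), Rpl35a (0.63 ± 0.187), Rpl9 (0.59 ± 0.0881), Rps12 (0.59 ± 0.193) and Rpl13a (0.55 ± 0.0642), as differences on the log2 scale with SE. Rpl13a, known in human cells also for a role in translational silencing away from the ribosome, had 475, 432 and 445 FPKM in intervention libraries, against 307, 333 and 285 in control libraries. Rps12 had 225, 147 and 256 FPKM in intervention libraries, against 162, 141 and 108 in control libraries. The Rpl13a groups were far apart, while those of Rps12 overlapped through intervention replicate 2. The Rps12 call (adjusted p = 0.0215, limma) was lost without intervention replicate 1, intervention replicate 3 or control replicate 3, at adjusted p-values of 0.0675, 0.085 and 0.0802. The Rpl35a call (adjusted p = 0.0132) was lost without control replicate 3, at 0.0509. Rpl30, called at an adjusted p of 0.0419, was lost without intervention replicate 1, without any of control replicates 1 and 2, or without experimental replicate 3, at 0.0538 to 0.16.

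Both comparisons rest on the same control libraries, so their calls are not independent. In all, 66 of 81 members were called higher in both, where 20.5% of all tested entries were. Rps27l and Rpl38, a large-subunit protein known in mice for its part in translating homeobox mRNAs, were called in experimental against control alone. Rpl35a, Rpl39, Rpl39l, Rpl41, Rpl7a and Rps12 were called in intervention against control alone. The difference between the comparisons is the intervention against experimental comparison, in which none of these 8 genes was called.

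Intervention and experimental cultures were set against each other directly. None of the 81 ribosomal protein genes was called in either direction (limma), and 1 (Rpl7l1) had an unadjusted p under 0.05. Among all tested entries 19.5% were called, 15.9% as higher and 3.6% as lower. Without adjustment, 4550 of the 11974 tested entries had a p under 0.05 (limma). The median difference was 0.05 for the ribosomal protein genes and 0.10 over all tested entries. For 73 of 81 genes the 95% interval of the difference stayed within 0.5 on the log2 scale in both directions. The widest interval, that of Rpl17, ran from -1.94 to 0.45. The limit of 0.5 is larger than the members' median differences from control, 0.38 in experimental and 0.43 in intervention cultures. An interval within it can therefore still include a change of that size.

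Rpl7l1 had 38.4, 35.9 and 38.3 FPKM in intervention libraries, against 36.3, 34.8 and 32.3 in experimental libraries, a difference of 0.12 ± 0.0529 (SE, log2 scale, adjusted p = 0.127, limma). The groups overlapped. Without overlap, 6 members were higher in intervention libraries, where 33.7% of all tested entries were. Without intervention replicate 2, which had the lowest share of ribosomal protein mRNA in its group, Rps15, Rps26 and Rpl36al were called higher, at differences of 0.23, 0.23 and 0.33. The sign of the members' median depended on scaling, at -0.07 with median-ratio scaling and -0.06 with the length and GC trend removed. Median-ratio scaling split the calls over all entries into 567 higher and 946 lower, against 1906 higher and 431 lower as deposited. With quantile normalization it was 451 higher and 587 lower.

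Replicates spread more in the control and intervention groups than in the experimental group. The median coefficient of variation of the 81 genes was 7.38% in intervention, 3.14% in experimental and 9.95% in control libraries. The members moved together within a group: in control replicate 2 their median was 0.11 above the group mean on the log2 scale, in control replicate 3 it was 0.13 below, and in intervention replicate 2 it was 0.10 below. The 1208 other tested entries of at most 1000 exonic bases had medians of 0.06, -0.06 and -0.04 in those libraries, the same direction with a smaller shift. Elsewhere the signs could differ. The members' median was 0.03 in intervention replicate 3, 0.009 in experimental replicate 1 and -0.03 in experimental replicate 3. The short entries had -0.01, -0.009 and 0.006 there. The part of gene length in the members' shifts was not tested.

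Some members stood apart from the rest. To find them, each library was centred on the median of the 81 genes, and the fit was repeated over all entries. Relative to that median, 6 members differed in experimental against control, 6 in intervention against control and 0 in intervention against experimental (limma, adjusted p under 0.05). In the last comparison 2 had an unadjusted p under 0.05, and the share of all entries under that unadjusted threshold is not given here. Over all tested entries 75.6%, 77.1% and 1.11% were called in the same 3 fits. Relative to the members' median, Rps27l, Rpl36al, Rpl7l1 and Rpl3 were lower than in control libraries in both control comparisons, and Rpl22l1 was higher in both. Rpl29 was higher in experimental against control alone, and Rps2 was lower in intervention against control alone, and the difference between the comparisons was not called for either gene. With each gene summed with its copies, Rps2 was lower in both control comparisons, at -0.27 (adjusted p = 0.00682) in intervention and -0.28 (adjusted p = 0.00472, limma) in experimental against control.

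Rps27l, a paralog of Rps27 that is known as a p53 target in human and mouse cells, had 25.9, 20.4 and 23.8 FPKM in intervention libraries, 18.3, 20.4 and 19.97 in experimental libraries, and 26.4, 28.4 and 19.7 in control libraries. The 3 groups overlapped, with control replicate 3 at the level of the experimental libraries. It fell by 0.31 in experimental against control (adjusted p = 0.0433, limma), a call that was lost without any of the 3 experimental libraries, without control replicate 1 or 2, or without intervention replicate 3, at adjusted p-values of 0.0569 to 0.16. With median-ratio scaling it was -0.07 (adjusted p = 0.59). Relative to the members' median it was lower by more, at -0.68 ± 0.111 (SE, log2 scale, adjusted p = 4.19e-06) in experimental against control and -0.54 ± 0.111 (adjusted p = 9.28e-05, limma) in intervention against control. These calls were kept when any single library was left out.

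Rpl36al, an intronless paralog of Rpl36a, had 60.3, 44.4 and 57.6 FPKM in intervention libraries, 46.9, 46.1 and 46.6 in experimental libraries, and 50.4, 51.6 and 42.2 in control libraries. The groups overlapped, and its level was not called in experimental against control (-0.04, adjusted p = 0.764) or intervention against control (0.16, adjusted p = 0.218, limma). Relative to the members' median it was lower by -0.40 ± 0.107 (adjusted p = 0.0015) in experimental against control and by -0.30 ± 0.107 (adjusted p = 0.0122, limma) in intervention against control. The second value was not called without intervention replicate 2 (adjusted p = 0.0681).

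Rpl7l1, a relative of Rpl7 linked to large-subunit assembly, had 34.7, 35.9 and 34.7 FPKM in control libraries, close to the experimental and intervention values above. Relative to the members' median it was lower by -0.39 ± 0.113 (adjusted p = 0.00323) in experimental against control and -0.37 ± 0.113 (adjusted p = 0.00442, limma) in intervention against control. Both calls were kept when any single library was left out.

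Rpl3, a core protein next to the catalytic centre, had 219, 215 and 238 FPKM in intervention libraries, 229, 227 and 214 in experimental libraries, and 211, 226 and 197 in control libraries, and the groups overlapped. Relative to the members' median it differed by -0.38 ± 0.101 in intervention against control (adjusted p = 0.00133) and -0.28 ± 0.101 in experimental against control (adjusted p = 0.0141, limma). The experimental call was lost without experimental replicate 2 or 3, at adjusted p-values of 0.0572 and 0.0839, and with the length and GC trend removed (-0.16, adjusted p = 0.0833). Rps2 differed by -0.46 ± 0.158 relative to the members' median in intervention against control (adjusted p = 0.0102, limma). That call was lost without intervention replicate 1 (-0.21, adjusted p = 0.174) or control replicate 3 (-0.39, adjusted p = 0.0838, limma), and with the length and GC trend removed (-0.30, adjusted p = 0.126).

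Rpl22l1 had 8.52, 7.75 and 6.99 FPKM in intervention libraries, 7.66, 7.47 and 6.90 in experimental libraries, and 3.41, 5.58 and 3.44 in control libraries. All intervention and experimental values exceeded all control values. Relative to the members' median it differed by 0.32 ± 0.137 in intervention against control (adjusted p = 0.0339) and 0.36 ± 0.137 in experimental against control (adjusted p = 0.0191, limma). Both calls were lost without control replicate 1 (adjusted p = 0.248 and 0.17), the first also without intervention replicate 1 or 2 (0.117 and 0.119) and the second without experimental replicate 1 (0.0763). Rpl29 differed by 0.34 ± 0.134 relative to the members' median in experimental against control (adjusted p = 0.0249, limma). That call was lost without experimental replicate 1 or 3 or control replicate 1 or 2, at 0.064 to 0.102.

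**Figure D3:**
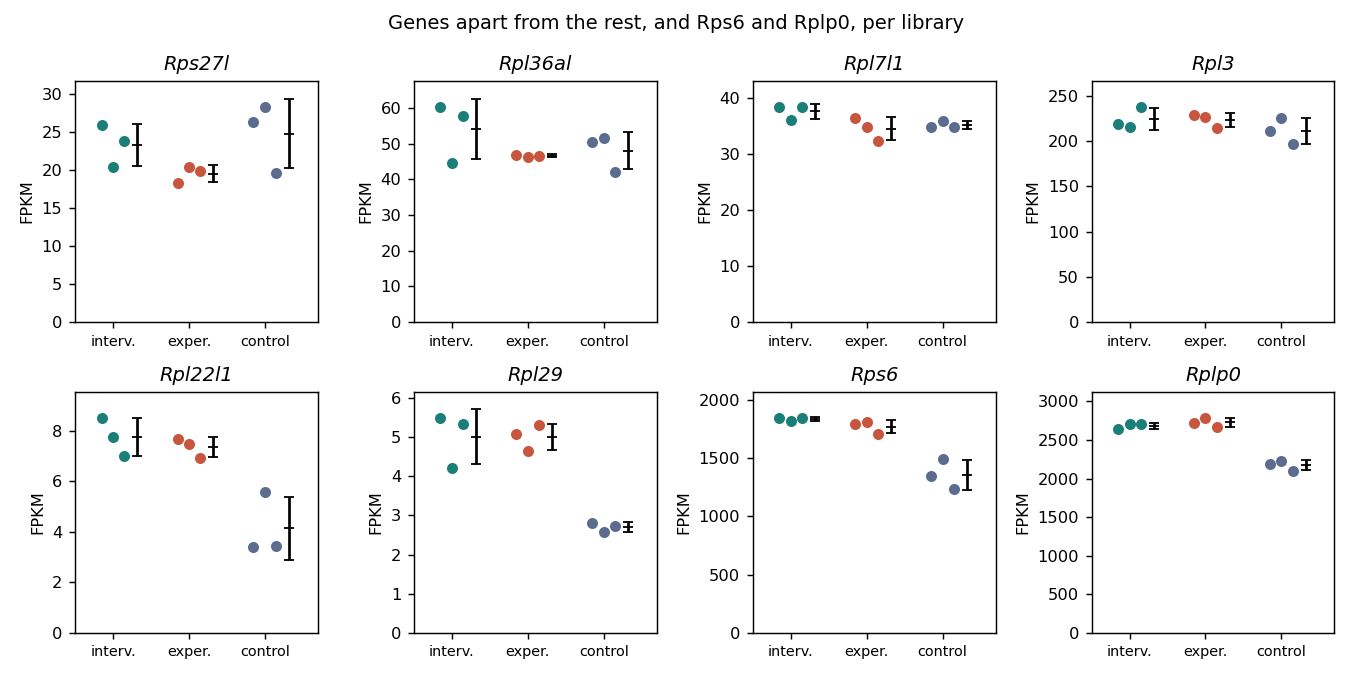
FPKM per library (points) with the group mean and SD for 6 genes that stood apart from the other members, and for Rps6 and Rplp0 as members close to the rest. Rps6 lies at 1816 to 1847 FPKM in intervention and 1708 to 1810 in experimental libraries, above 1236 to 1489 in control libraries, whereas Rpl7l1 stays between 32.3 and 38.4 FPKM throughout.

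The paralogs were also set against their usual gene within each library, as the log2 ratio of FPKM. Of 8 listed pairs 5 could be tested over the 3 groups by an exact permutation test, and p-values were adjusted over the 5. Rpl3l was not analysed here, and Rpl10l and Rps4l were below the minimum. With 3 libraries against 3 the exact test cannot give a p below 0.1, so single group pairs are described by their values.

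Rpl7l1 amounted to 6.6% to 7.57% of Rpl7 in intervention, 6.51% to 6.79% in experimental and 7.95% to 8.39% in control libraries (exact permutation p = 0.0107, adjusted p = 0.0446). Rpl36al amounted to 33.3% to 37.6% of Rpl36a in intervention, 31.3% to 35.5% in experimental and 40.3% to 46.6% in control libraries (exact permutation p = 0.0179, adjusted p = 0.0446). Both ratios were lower in every intervention and experimental library than in any control library. Rpl22l1 amounted to 12.4% to 15.3% of Rpl22 in intervention, 13.0% to 14.1% in experimental and 8.02% to 11.9% in control libraries, and its exact permutation p of 0.0357 did not pass the adjustment (0.0595). With copies added to the usual gene of each pair, a choice made after the values were seen, its exact permutation p stayed at 0.0357. Its adjusted p was then 0.0446, only because the p of the Rps27l pair below became smaller.

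Rps27l amounted to 27.5% to 66.9% of Rps27 in intervention, 26.8% to 44.5% in experimental and 46.1% to 87.3% in control libraries (exact permutation p = 0.264). Rps27 itself varied widely between libraries of a group. With Rps27rt added to Rps27 in the same way, Rps27l amounted to 12.3% to 21.3% in intervention, 12.3% to 14.1% in experimental and 22.3% to 28.4% in control libraries (exact permutation p = 0.0214, adjusted p = 0.0357). Rpl39l, a paralog enriched in mouse testis, stood at 116% to 141% of Rpl39 in intervention, 117% to 123% in experimental and 113% to 140% in control libraries (exact permutation p = 0.589). The Rpl39l and Rpl39 ratio thus overlapped between all 3 groups.

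The coding sequences show how far these paralogs can be told apart by reads. Those of Rps27l and Rps27 are both 255 bases long and 76.1% identical, with 61 mismatches. They are printed from the GENCODE M21 transcripts (mm10), with mismatched bases in capitals and the position of the whole gene before each.
Rps27l, chr9:66946086-66949516, plus strand: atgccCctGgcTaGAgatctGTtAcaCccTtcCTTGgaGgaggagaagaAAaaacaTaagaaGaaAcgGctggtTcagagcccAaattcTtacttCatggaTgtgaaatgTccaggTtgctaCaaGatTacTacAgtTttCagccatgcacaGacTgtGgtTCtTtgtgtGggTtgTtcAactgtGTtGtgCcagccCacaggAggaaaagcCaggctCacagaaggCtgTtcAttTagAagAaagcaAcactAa
Rps27, chr3:90212522-90213651, minus strand: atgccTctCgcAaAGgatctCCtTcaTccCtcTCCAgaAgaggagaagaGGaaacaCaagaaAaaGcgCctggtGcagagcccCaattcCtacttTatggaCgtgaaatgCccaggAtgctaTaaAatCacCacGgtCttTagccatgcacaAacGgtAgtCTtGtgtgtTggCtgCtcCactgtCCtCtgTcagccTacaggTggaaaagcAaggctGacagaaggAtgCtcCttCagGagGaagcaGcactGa

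Those of Rpl39l and Rpl39 are both 156 bases long and 85.3% identical, with 23 mismatches in capitals. The longer coding sequences of Rpl36al and Rpl36a, 321 bases each, are 87.9% identical with 39 mismatches.
Rpl39l, chr16:10170226-10174911, plus strand: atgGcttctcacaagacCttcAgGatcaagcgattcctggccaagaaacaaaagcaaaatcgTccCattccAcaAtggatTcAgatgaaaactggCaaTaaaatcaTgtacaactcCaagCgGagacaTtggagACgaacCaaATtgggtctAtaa
Rpl39, chrX:37082520-37085402, minus strand: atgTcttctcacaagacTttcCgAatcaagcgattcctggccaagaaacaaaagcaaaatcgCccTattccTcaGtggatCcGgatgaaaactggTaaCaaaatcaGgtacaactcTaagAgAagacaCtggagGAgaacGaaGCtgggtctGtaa

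Named copies complicate the level of many members. In the table, 57 of the 82 genes have 233 entries named as their copies (a symbol followed by -ps or rt), and 113 of these averaged at least 1 FPKM. For 15 members the gene itself held under 50% of the sum of gene and copies, while 47 members held at least 90%. Rpl34 held 1.22% of its family sum, Rps2 1.98%, Rpl35a 2.49%, Rpl21 5.76%, Rps18 5.79% and Rpl17 12.8%. How the authors' counting dealt with reads that match a gene and its copies is not given in the sources used here, so the split within a family is uncertain.

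Rps2, a small-subunit protein at the mRNA entry, had 37.7, 60.01 and 64.9 FPKM in intervention libraries, 59.7, 61.5 and 46.2 in experimental libraries, and 61.3, 47.5 and 50.01 in control libraries. Its intronless copies Rps2-ps13 and Rps2-ps10 averaged 1473 and 1184 FPKM over all libraries. Summed with its copies, Rps2 gave 2951, 2820 and 2823 FPKM in intervention, 2723, 2838 and 2634 in experimental, and 2607, 2737 and 2522 in control libraries. The sum was steady where the gene alone was not, with a coefficient of variation, averaged over the groups, of 3.50% against 18.5%. It differed by 0.13 in intervention against control (adjusted p = 0.0614) and 0.06 in experimental against control (adjusted p = 0.349, limma). Rpl3 held 22.7% of the sum with its copies, which likewise differed by 0.09 (adjusted p = 0.123) and 0.07 (adjusted p = 0.221, limma) in the same comparisons.

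Rpl17 alone ranged between 52.7 and 200.3 FPKM in intervention, 101 and 219 in experimental, and 50.7 and 157 in control libraries, with a mean coefficient of variation of 60.5%. Summed with its copies it gave 1169, 932 and 1112 FPKM in intervention, 1005, 863 and 881 in experimental, and 645, 910 and 684 in control libraries, with a coefficient of 13.0%. Control replicate 2 lay at the level of the experimental libraries. Each stretch of 50 bases of the Rpl17 coding sequence occurs in a copy, and the same holds for Rps27, Rps12 and Rpl9 among others. It is not particular to genes with a wide spread. Rps6 and Rpl10 share it, with mean coefficients of variation of 4.46% and 2.51%, as does Rpl36a.

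Rps27 had 38.8, 43.3 and 86.7 FPKM in intervention libraries, 68.2, 57.9 and 44.9 in experimental libraries, and 30.2, 56.8 and 42.7 in control libraries. With Rps27rt, its annotated protein-coding copy, the sums were 175, 165 and 112 FPKM in intervention, 129, 160 and 162 in experimental, and 118, 127 and 69.4 in control libraries. Intervention replicate 3, the highest library for Rps27 alone, was the lowest of its group for the sum. Rps12 with its copies had 981, 890 and 917 FPKM in intervention, 928, 933 and 950 in experimental, and 658, 711 and 611 in control libraries, and the groups did not overlap against control. The Rps12 sum was called at 0.49 in intervention and 0.51 in experimental against control (adjusted p = 6.3e-05 and 3.45e-05, limma), where Rps12 alone was not called in the second.

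Summing each gene with its copies, a choice made after the values were seen, gave 72 higher and 1 lower member in experimental against control, 74 higher and 0 lower in intervention against control, and 0 called in intervention against experimental.

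**Figure D4:**
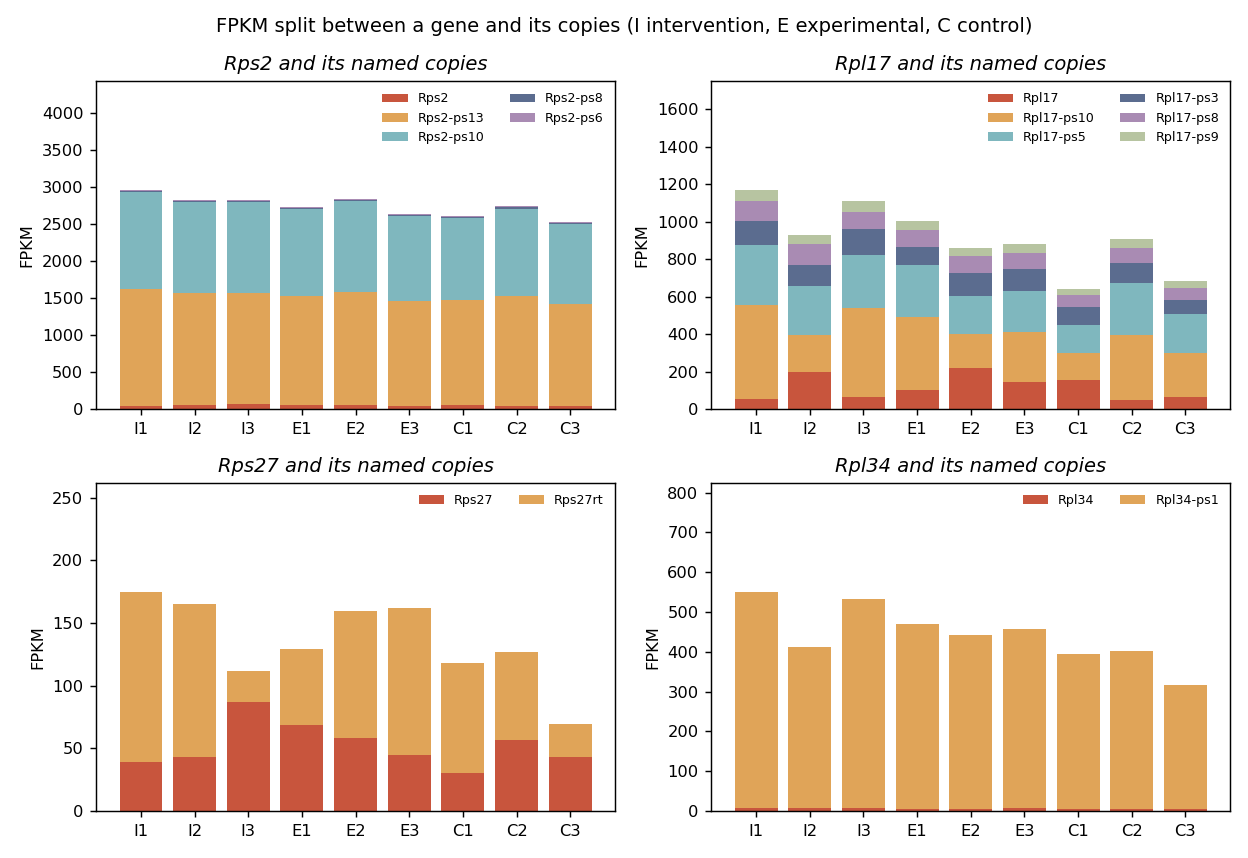
FPKM of Rps2, Rpl17, Rps27 and Rpl34 (red) stacked with their named copies, in intervention (I), experimental (E) and control (C) libraries by replicate number. Rps2 and Rpl34 hold 1.98% and 1.22% of their family sum, and the division between Rpl17 or Rps27 and their copies changes from library to library.

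The start of the gene carries the TOP tract, and RefSeq windows (GRCm38.p6, 250 bases before to 50 after the annotated start) were matched to 62 of the 82 genes by symbol. A C followed by at least 4 pyrimidines (C or T) exactly at the annotated start was present in 13 of 62 members (21%), in 3.01% of 27025 symbols with a window and in 2.93% of 8339 other tested symbols. Within 10 bases of the start it was present in 61.3% of members, 34.4% of all symbols and 36.6% of other tested symbols. Annotated starts can be off by some bases, so the exact count is a description of the annotation. Windows of 5 members that rose in both control comparisons or encode the usual gene of a paralog pair are shown with the tract in capitals, 20 bases before and 25 from the start.
Rps6, chr4:86857343-86857387, minus strand: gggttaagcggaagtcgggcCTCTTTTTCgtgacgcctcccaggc
Rpl35, chr2:39005107-39005151, minus strand: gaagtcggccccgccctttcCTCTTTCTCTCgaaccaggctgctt
Rps18, chr17:33955641-33955685, minus strand: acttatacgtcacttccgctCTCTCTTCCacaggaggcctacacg
Rps15a, chr7:118116123-118116167, minus strand: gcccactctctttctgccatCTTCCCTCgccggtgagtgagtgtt
Rps27, chr3:90213624-90213668, minus strand: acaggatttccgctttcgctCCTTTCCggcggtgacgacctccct

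The paralogs Rps27l, Rpl36al, Rpl7l1 and Rpl22l1 had no such tract exactly at the annotated start, and neither had the usual genes Rpl22, Rpl36a and Rpl39. Within 10 bases of the start Rps27l, Rpl22l1, Rpl22, Rpl36a and Rpl39 had one in at least 1 of their windows, and Rpl36al and Rpl7l1 had none. Windows of the 4 paralogs are shown for comparison, in lower case throughout.
Rps27l, chr9:66946066-66946110, plus strand: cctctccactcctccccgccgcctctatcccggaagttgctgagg
Rpl36al, chr12:69184043-69184087, minus strand: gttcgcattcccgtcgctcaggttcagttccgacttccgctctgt
Rpl7l1, chr17:46782632-46782676, minus strand: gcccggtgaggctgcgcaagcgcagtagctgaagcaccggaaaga
Rpl22l1, chr3:28805488-28805532, plus strand: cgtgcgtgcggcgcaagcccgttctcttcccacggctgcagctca

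The 13 members with the tract at the start differed by a median of 0.44 in intervention against control and 0.42 in experimental against control, and the 48 tested members without it by 0.44 and 0.36. CCGGAAG, the core bound by ETS factors such as Gabpa, was searched on both strands of the window of 300 bases and was present in 40.3% of members, 9.93% of all symbols and 22.3% of other tested symbols. CACGTG, the E-box bound by Myc and Max, was present in 9.68% of members, 8.09% of all symbols and 12.3% of other tested symbols. Members with CCGGAAG differed by a median of 0.43 and members without it by 0.45 in intervention against control.

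Genes that act with the ribosome were counted in lists beside the members, to be read against the 24.1% higher and 41.1% lower of all tested entries in intervention against control and the 23.5% and 50.5% in experimental against control. Fau, Rack1 and Rps3a1 encode ribosomal proteins whose symbols fall outside the naming rule, and these 3 were higher in both control comparisons. Rps3a1 averaged 2151 ± 71.4 FPKM in intervention, 2093 ± 56.8 in experimental and 1583 ± 90.8 in control libraries (SD, n = 3 each). Rack1, the scaffold on the small subunit, averaged 344 ± 5.44, 355 ± 4.77 and 256 ± 11.1 FPKM in the same groups.

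Of 15 tested elongation and ribosome-bound factors, 13 were higher and 2 lower in intervention against control, 12 higher and 2 lower in experimental against control, and 1 higher and 2 lower in intervention against experimental. The lower genes in both control comparisons were Eef2k, the kinase that inhibits Eef2, and Eif5a2. Etf1, the release factor that ends translation, averaged 79.3 FPKM in intervention, 98.7 in experimental and 46.9 in control libraries. It was higher in experimental than in control libraries (adjusted p = 3.7e-07) and fell by 0.31 in intervention against experimental (adjusted p = 0.0171, limma). Eef2, which moves the ribosome along the mRNA, also fell in intervention against experimental, by 0.18 (adjusted p = 0.0448).

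Of 20 genes outside the naming rule known for a TOP tract, 16 were higher and 1 lower in intervention against control. In experimental against control 16 were higher and 2 lower. Eef1a1, Eef1b2, Eef1d, Eef1g, Eef2, Naca, Btf3, Rack1 and Fau were already counted in the lists above. Nap1l1 is also counted among the chaperones below, so the counts of these lists are not independent. Npm1, a nucleolar chaperone, rose by 0.58 and 0.70 in these comparisons and Gas5, a noncoding host of small nucleolar RNAs, by 0.77 and 0.74. Vim, an intermediate filament gene, was lower, at 302.7 ± 15.6 FPKM in intervention, 316.5 ± 13.4 in experimental and 633 ± 25 in control libraries. Pabpc1 and Hnrnpa1 were not called, at -0.13 and -0.10 in intervention against control and 0.02 and -0.05 in experimental against control.

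Of 13 chaperones and importers of ribosomal proteins, 9 were higher and 1 (Ipo9) lower in each control comparison. Grwd1, the chaperone of Rpl3, averaged 26.6 ± 0.36 FPKM in intervention, 30.0 ± 0.386 in experimental and 10.5 ± 0.82 in control libraries. Rpl3 itself was not called in either control comparison, alone or summed with its copies, and it held 22.7% of that sum. Ipo7, an importer of Rpl5 and Rpl11 among others, averaged 52.3, 62.3 and 25.8 FPKM in the same groups, and was lower in intervention than in experimental libraries by 0.25 (adjusted p = 0.0352, limma). Tsr2, the chaperone of Rps26, rose by 0.76 and 0.66, and Ltv1, which escorts Rps3, by 0.65 and 0.44, in intervention and experimental against control.

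Of 18 tested genes of ribosome quality control, 9 were higher and 3 lower in intervention against control, and 9 higher and 5 lower in experimental against control. Pelo, which rescues stalled ribosomes, rose by 0.71 and 0.73, and Tcf25, of the complex that tags stalled nascent chains, fell by 0.48 and 0.61. Of 20 tested regulators, 9 were higher and 5 lower in intervention against control, and 10 higher and 7 lower in experimental against control. Myc, a transcription factor that drives ribosome production, averaged 36.3 ± 4.11 FPKM in intervention, 43.6 ± 1.59 in experimental and 22.3 ± 0.888 in control libraries. It was lower in intervention than in experimental libraries by 0.26 (adjusted p = 0.0404, limma), while the ribosomal protein genes showed no call in that comparison. Cnbp, known from Xenopus to bind TOP mRNAs, Larp1, which binds the TOP tract, and Larp4, which binds poly(A) tails, were higher in both control comparisons, by 0.94, 0.43 and 0.74 in intervention and 0.98, 0.50 and 1.01 in experimental against control. Mtor and the S6 kinase gene Rps6kb2 were lower, by 0.42 and 0.61 in intervention and 0.60 and 0.84 in experimental against control. Trp53 rose by 0.63 and 0.70 and Mdm2 by 0.65 and 0.80 in the same comparisons.

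**Figure D5:**
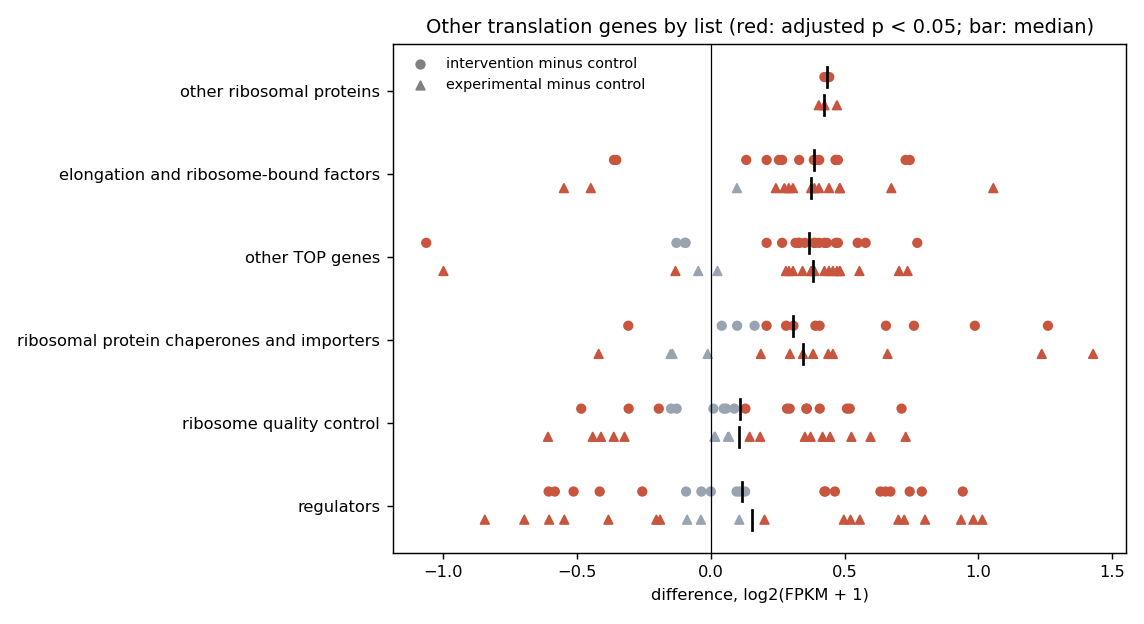
Differences on the log2(FPKM + 1) scale of genes in 6 partly overlapping lists, for intervention minus control (circles) and experimental minus control (triangles). Red marks an adjusted p under 0.05 (limma), and a bar marks each list's median. The 3 other ribosomal proteins lie above 0 in both comparisons, whereas quality control genes and regulators lie on both sides of 0.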

How the data were processed

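RNA was measured by mRNA sequencing in 9 libraries. A SMARTer mRNA-Seq kit was used, per the labels' protocols. The authors deposited 1 table of FPKM with 29756 entries, and mm10 is the build per the submitters' processing notes. Not given in the sources used here are the annotation, the aligner, the counter, the use of strand and how reads matching several places were treated. Such choices move reads between a ribosomal protein gene and its copies.

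Values were taken as log2(FPKM + 1), and an entry was tested when it reached 1 FPKM in at least 3 libraries, which left 11974. Fold changes on this scale understate the change of low genes. Limma 3.58.1 in R 4.3.3 (eBayes with a mean-variance trend) was fitted to all 9 libraries without covariates, with Benjamini-Hochberg adjustment over all tested entries, 2-sided, called under 0.05. A second fit was centred on the median of the 81 tested members. Pair ratios used a pseudocount of 0.1 and exact permutation tests over libraries (Python 3.11.15, numpy 2.4.6, pandas 2.3.3). Annotation was GENCODE M21 (mm10) and start windows were RefSeq's for GRCm38.p6. The scripts were tested on simulated data.

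Since FPKM carries no read number, depth is unknown and precision comes from the spread between replicates alone. Whole reads could not be recovered: among genes under 200 bases, 17.4% of the 8245 nonzero values were smaller than a single read would give at a depth of 200 M reads. Members, lists and tests were chosen with earlier results of these data known. Named are the 8 listed paralogs with their usual gene, the 5 members of highest mean FPKM, the 6 called members with the largest positive and the 6 with the largest negative difference per comparison, members below the filter, and up to 4 genes of each list with the smallest adjusted p. All other members and list genes named were chosen after their values were seen. A single listed gene is not reported here.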

Additional observations from a re-analysis of the deposited data

How the results depend on the processing

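Each count and median of the members, and the most abundant and most changed members in both control comparisons, were recomputed under other pseudocounts, filters, scalings and spread estimates, and without each library. Members called ranged between 60 and 72 in experimental against control, 65 and 73 in intervention against control and 0 and 3 in intervention against experimental when 1 library was left out. In the last comparison 2 were called with quantile normalization and 1 with the length and GC trend removed, with a median that reversed to -0.061 there and to -0.066 with median-ratio scaling. The median difference moved to 0.63 with median-ratio scaling and 0.56 with the length and GC trend removed in experimental against control, and to 0.56 with median-ratio scaling and 0.28 with quantile normalization in intervention against control. It was 0.30 to 0.44, 0.37 to 0.50 and 0.02 to 0.10 without single libraries in experimental against control, intervention against control and intervention against experimental. Members apart from the members' median numbered 5 to 9, 4 to 9 and 0 to 1 without single libraries in the same order of comparisons, and 15 and 12 in both control comparisons with the length and GC trend removed. Quantile normalization reversed Rps15 (-0.20), Rps4x (-0.15) and Rps6 (-0.11) in experimental against control, and Rps15 (-0.034) and Rps4x (-0.029) in intervention against control. Without mitochondrial genes in the sum the shares were 10.05%, 9.91% and 8.08% in intervention, experimental and control libraries. Leaving out single libraries gave shares of 8.25% to 8.52%, 8.11% to 8.23% and 6.52% to 6.89%. Pair ratios without single libraries gave an exact permutation p of 0.0357 to 0.075 for Rpl22l1, 0.182 to 0.536 for Rps27l, 0.0179 to 0.0464 for Rpl36al and 0.00357 to 0.0464 for Rpl7l1. For Rpl39l it was 0.121 to 0.854, and the direction turned without control replicate 3. With Rps27rt added, Rps27l gave 0.0214. The causes were not tested. Other named genes were not recomputed under all of these. Of the values for those members, 601 kept their direction and side of the threshold, 36 lost the call and 5 reversed.

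No label says that replicate numbers pair the libraries. Same-numbered libraries correlated between -0.18 and 0.11 after the group means were removed, and differently numbered ones between -0.14 and 0.15. With 3 libraries per group these correlations cannot show whether the numbers mark a shared culture or day. With the replicate block 68 members were called in experimental against control, 70 in intervention against control and 0 in intervention against experimental. In that block 1 member (Rpl17) stood apart in intervention against experimental, and it also did in experimental against control (0.52, adjusted p = 0.000276) and intervention against control (-0.33, adjusted p = 0.0213), as did Rpl30 in the first (0.34, adjusted p = 0.0297). Rpl29 no longer stood apart in experimental against control (adjusted p = 0.0534) nor Rpl22l1 in intervention against control (adjusted p = 0.0529, limma) under it. In it the exact permutation p was 0.111 for the Rpl22l1 ratio and 0.0556 for the Rpl7l1 ratio. The count test planned for recovered reads was not run, since whole reads could not be recovered from FPKM.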
